A study of Mus musculus with 14 samples.

Results

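Rab proteins are small GTPases that mark the membranes of the cell. Each switches between a GDP-bound form in the cytosol and a GTP-bound form on a membrane, where it recruits effector proteins that move, tether and fuse vesicles. Guanine nucleotide exchange factors (GEFs) load a Rab with GTP, GTPase-activating proteins (GAPs) end the active state, and a lipid anchor added by geranylgeranyl transferase holds the protein on its membrane. In blood cells the family is best known for the Rab27, Rab3 and Rab37 branches, which bring secretory granules to the plasma membrane. Rab32 and Rab38 serve lysosome-related organelles such as melanosomes and platelet dense granules.

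The genes described here were taken by name alone, as those whose platform symbol is Rab followed by a number, with at most 1 letter and 1 further digit. This rule found 59 of the 18194 genes on the array and used no measured value, apart from the choice of the brightest probe set where a gene had several. The 59 genes had 132 probe sets, and 21 of them had a single one. By their known sites of action they were placed, with earlier results of these data known, among early endosomes (10 genes), recycling and delivery to the plasma membrane (10), late endosomes, lysosomes and autophagy (6), the endoplasmic reticulum (ER) and Golgi (16), regulated secretion (9), lysosome-related organelles (3) and cilium or other sites (5). On the map, 3 members (Rab13, Rab25 and Rab33b) lie on chromosome 3, which also carries Tet2, and 4 (Rab9, Rab9b, Rab33a and Rab39b) on the X chromosome.

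The study deleted Tet2, which encodes a dioxygenase that oxidises 5-methylcytosine in DNA, in mice of mixed B6/129 background. WT animals were Tet2+/+ and KO animals Tet2-/-. Both carried the Mx transgene, in which an interferon-responsive promoter drives Cre in blood cells and other tissues, and deletion was induced with pIC, a double-stranded RNA mimic. The labels call the donors of LSK and CMP cells littermates. The sorted populations were LSK cells (lineage-negative, positive for c-Kit and Sca1, the fraction that holds blood stem cells), common myeloid progenitors (CMP) and granulocyte-macrophage progenitors (GMP). LSK and CMP cells were taken 4 weeks after deletion, while no time is stated for GMP. The remaining KO cells were LSK cells sorted for CD150 and replated 5 times in culture, and a WT counterpart of these was not analysed here. The 7 groups had 2 arrays each, hybridised with cDNA amplified from 5 ng of total RNA.

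Values are probe-set intensities. The floor of an array is the brightest of its 27 probe sets for bacterial controls and lay between 20.8 and 27.8. Differences are in log2 units with the standard error (SE) of limma, and a gene was called where its Benjamini-Hochberg adjusted p over 18194 genes was below 0.05. The labels do not state whether both arrays of a group stem from different animals or cultures, so the p-values measure the spread between these arrays, which may be technical.

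The measured genes of an LSK marker list summed to between 10900 and 14200 in the LSK groups and to between 2010 and 2950 in the GMP groups, and those of a myeloid progenitor list to between 20000 and 23000 in LSK and between 54100 and 57300 in GMP. The replated arrays stood apart from the sorted ones. For these, the 9 measured genes of the mast cell and basophil list (of 10) summed to between 1190 and 5840 on the sorted arrays and to 69100 and 71300 on the replated ones, where 9 of 9 lay above the floor on both arrays. Mcpt8, at 496 and 485, and Hdc, at 967 and 855, were lower in replated cells than in KO GMP (857 and 1020, and 1440 and 1550). The other genes of this list were brighter on both replated arrays than on any sorted array. The 7 genes of the myeloid progenitor list summed to 9330 and 10000 on the replated arrays. Mpo, Elane, Ctsg and Prtn3 were below the floor there, and Ms4a3 lay at 146 and 165. Fcgr3, at 5450 and 5260, was above every sorted array, and Cd34 lay at 3670 and 4560, so most of the sum came from Fcgr3 and Cd34. Of the LSK list, 5 of 7 measured genes (of 8) were above the floor in replated cells, with Kit at 4910 and 5570 and Procr below the floor at 15.2 and 16.6. Xist lay between 4980 and 6630 on the sorted KO arrays and between 18.4 and 29.7 on the WT and replated arrays, and the Y-linked gene Eif2s3y ran the opposite way, so genotype and sex cannot be told apart among the sorted cells. The same holds for replating and sex in the comparison of replated with sorted KO cells. Of the 2 probe sets of Tet2, the brighter lay between 454 and 2040 in WT, between 855 and 2380 in sorted KO and at 1790 and 1820 in replated cells. The dimmer lay between 65.9 and 209 in WT, between 17 and 175 in sorted KO and at 780 and 796 in replated cells, so the genotypes overlapped on both. Whether these probes lie in the deleted stretch was not analysed here, so they do not check the labels.

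Most of the Rab family was measurable in every population. Intensities were above the floor on all 14 arrays for 44 of the 59 genes (74.6%, against 55% of all genes), on some arrays for 11, and on none for Rab26, Rab30, Rab36 and Rab9b. The genes above the floor throughout included every measured Rab5, Rab7, Rab8 and Rab11 gene as well as Rab1a, Rab2a and Rab6a, the general traffic genes of most cells. Some tissue-restricted relatives, Rab3b (neuroendocrine secretion), Rab25 (epithelial recycling) and Rab6b (neuronal Golgi traffic), passed the floor on 1, 1 and 4 arrays, and none of these 3 exceeded 25.7. Others did not follow this. Rab17, an endosomal Rab of epithelia, and Rab3a, a Rab of regulated secretion, were above the floor on all 14 arrays. On the sorted arrays Rab17 lay between 70.5 and 556 and Rab3a between 98 and 356. Because RNA came from whole populations, fewer cells of a type and less RNA per cell cannot be told apart in any of the differences below.

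**Figure D1:**
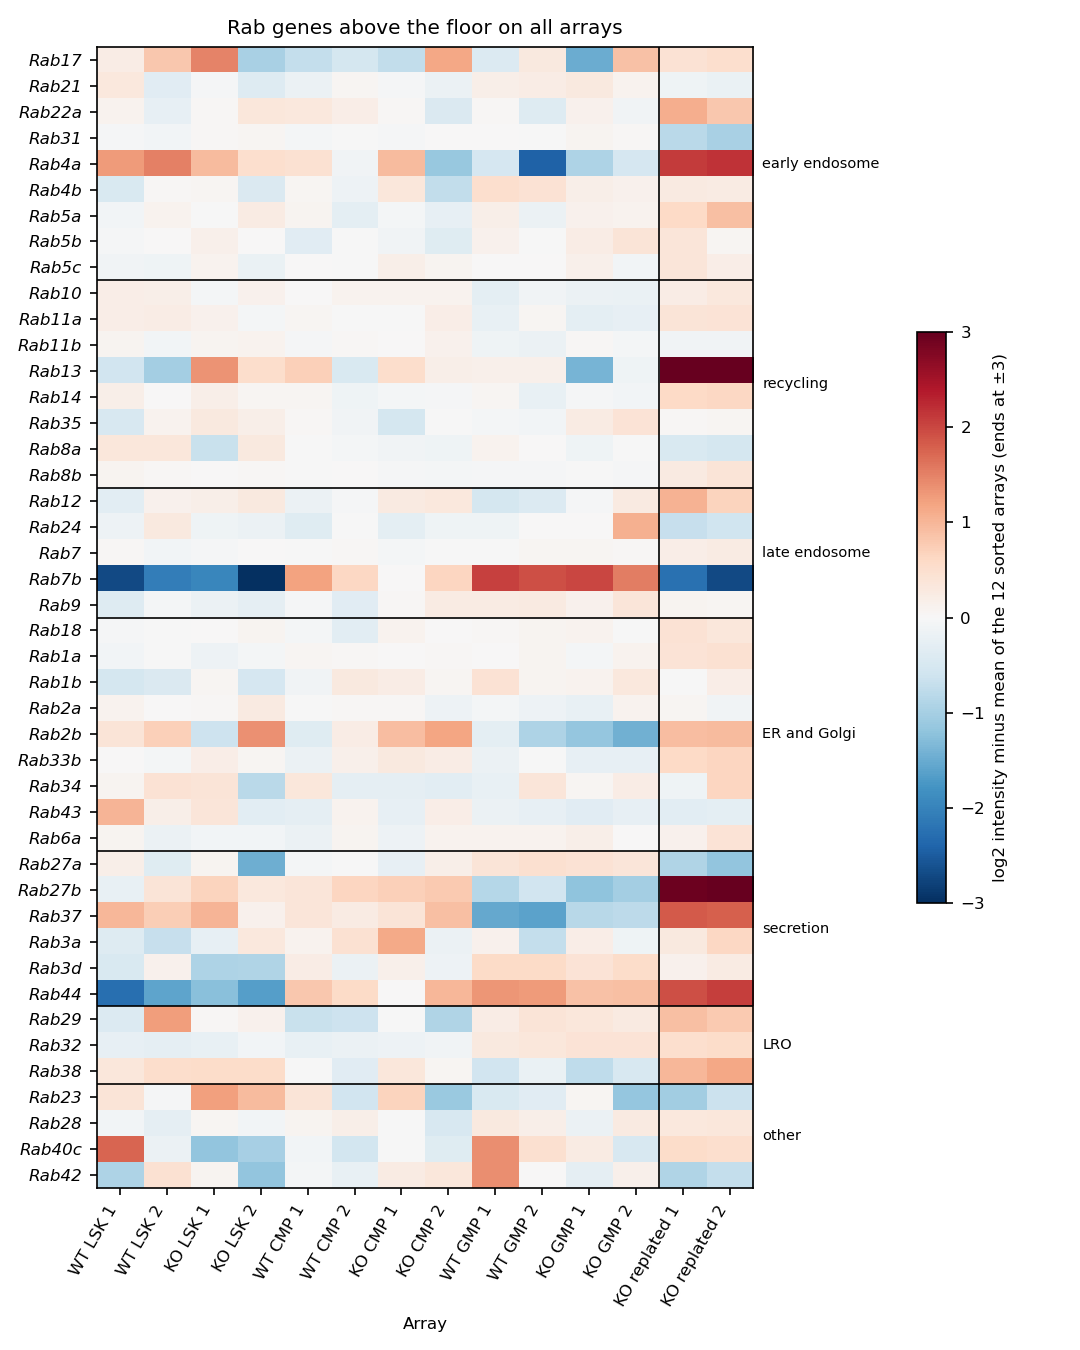
Log2 intensity of the 44 Rab genes above the floor on all 14 arrays, 1 row per gene and 1 column per array, minus the gene's mean over the 12 sorted arrays, with colours ending at ±3. Genes are grouped by site of action (LRO, lysosome-related organelles). Rab7b and Rab44 are low in the 4 LSK columns, and Rab13 and Rab27b are high in the 2 replated columns.

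The replated cells gave the widest Rab differences, and 10 members were called in the same direction against KO LSK, KO CMP and KO GMP alike. For 7 of these, the 250 bases upstream of the transcription start in the RefSeq promoter table (GRCm38.p6) are shown, 5′ to 3′ on the strand of the gene, because these are the genes called against all 3 sorted groups, Rab31 lower and the other 6 higher; Rab27b, Rab37 and Rab44 are named only. Capitals mark GGGCGG or its reverse complement CCGCCC, overlapping matches included, the core of the GC box found in many broadly used promoters.
Rab1a, chr11:20201162-20201411, plus strand: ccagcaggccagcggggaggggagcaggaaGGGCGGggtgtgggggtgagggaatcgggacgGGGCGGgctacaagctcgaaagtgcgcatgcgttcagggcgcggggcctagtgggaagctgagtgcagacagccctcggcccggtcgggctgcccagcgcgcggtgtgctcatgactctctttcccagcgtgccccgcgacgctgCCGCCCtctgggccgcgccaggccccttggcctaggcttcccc
Rab5a, chr17:53478984-53479233, plus strand: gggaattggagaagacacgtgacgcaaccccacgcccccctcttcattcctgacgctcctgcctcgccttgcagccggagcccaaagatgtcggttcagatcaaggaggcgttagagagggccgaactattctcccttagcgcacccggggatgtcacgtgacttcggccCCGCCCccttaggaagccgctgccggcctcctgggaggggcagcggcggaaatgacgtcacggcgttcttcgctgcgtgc
Rab13, chr3:90213465-90213714, plus strand: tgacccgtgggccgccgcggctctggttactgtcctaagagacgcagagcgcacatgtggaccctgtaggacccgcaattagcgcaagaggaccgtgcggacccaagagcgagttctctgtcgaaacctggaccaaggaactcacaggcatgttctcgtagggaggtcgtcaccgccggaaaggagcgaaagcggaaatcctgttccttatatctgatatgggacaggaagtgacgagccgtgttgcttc
Rab14, chr2:35201121-35201370, minus strand: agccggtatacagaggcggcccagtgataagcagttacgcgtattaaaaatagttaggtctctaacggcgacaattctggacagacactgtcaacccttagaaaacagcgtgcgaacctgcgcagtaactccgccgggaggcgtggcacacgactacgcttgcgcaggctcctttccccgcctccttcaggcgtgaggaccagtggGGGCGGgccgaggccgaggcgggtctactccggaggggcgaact
Rab19, chr6:39381103-39381352, plus strand: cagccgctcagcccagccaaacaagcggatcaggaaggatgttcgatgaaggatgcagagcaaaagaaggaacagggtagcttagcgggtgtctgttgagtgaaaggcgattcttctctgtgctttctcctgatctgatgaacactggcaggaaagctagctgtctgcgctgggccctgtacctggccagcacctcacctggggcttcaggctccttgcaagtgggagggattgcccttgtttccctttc
Rab22a, chr2:173659595-173659844, plus strand: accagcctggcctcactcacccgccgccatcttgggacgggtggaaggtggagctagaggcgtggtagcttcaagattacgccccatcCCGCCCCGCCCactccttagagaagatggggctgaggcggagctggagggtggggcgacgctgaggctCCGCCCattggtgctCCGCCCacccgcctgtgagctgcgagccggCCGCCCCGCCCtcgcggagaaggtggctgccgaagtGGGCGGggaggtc
Rab31, chr17:65772753-65773002, minus strand: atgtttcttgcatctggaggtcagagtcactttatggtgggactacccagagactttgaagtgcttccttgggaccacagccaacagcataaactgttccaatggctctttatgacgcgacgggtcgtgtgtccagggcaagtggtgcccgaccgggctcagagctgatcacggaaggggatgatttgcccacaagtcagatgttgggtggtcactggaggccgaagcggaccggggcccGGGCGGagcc

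The window of Rab22a held 7 matches and that of Rab1a 3, while Rab5a, Rab14 and Rab31 had 1 each. Rab13 and Rab19, which had the largest fold changes in replated cells among the 7, had 0. For Rab19 and Rab22a the table's start is not the outermost start of the gene. Over the 48 members with an entry, 33 (68.8%) held the motif, against 32.9% of 27025 promoters and 42.7% of the 17492 protein-coding ones. The members' windows also had more G and C, a median of 60.6% against 52% of all promoters and 55.2% of protein-coding ones, and the part of this in the motif's share was not tested. The other motifs were also searched on both strands. CANNTG, the E-box, was in 64.6% of members (66% of all), GATA in 50% (54.1%), GAGGAA, the core of PU.1 sites, in 12.5% (23.1%), and TGANTCA, the AP-1 site, in 2.08% (6.87%). CACGTG, a form of the E-box and so counted in CANNTG too, was in 8.33% of members (6.05% of all), with 2 matches in the window of Rab5a. These matches describe letters and not bound sites.

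The first question of the design, what loss of Tet2 changed in freshly sorted cells, gave no called Rab gene. Averaged over LSK, CMP and GMP, 0 of 59 members passed the threshold, where 0.308% of all genes did, and the median Rab difference was 0.04 against 0.03 over all genes. Over all genes 0.159% were higher and 0.148% lower in that average. Within LSK the count was again 0 (0.264% of all genes, 0.132% in each direction), within CMP 0 (0.121%, 0.0715% higher and 0.0495% lower) and within GMP 0 (0.0934%, 0.055% higher and 0.0385% lower). With an unadjusted p below 0.05 limma gave 4 members in the average, 4 in LSK, 0 in CMP and 2 in GMP.

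The 2 widest averaged differences in each direction were in Rab40c and Rab40b, members of a branch known as substrate receptors of a ubiquitin ligase, in Rab7b, which acts between late endosomes and the Golgi, and in Rab12, which acts in the degradation of the transferrin receptor. Rab40c differed by -0.93 ± 0.32 (KO minus WT; adjusted p = 0.407), Rab7b by -0.34 ± 0.25 (0.731), Rab12 by 0.43 ± 0.11 (0.235) and Rab40b by 0.56 ± 0.30 (0.625), all from the same limma fit. Rab12 was brighter in KO on every array of its population in LSK and GMP: it lay at 113 and 153 in WT LSK against 158 and 173 in KO LSK, and at 97.8 and 106 in WT GMP against 137 and 170 in KO GMP. In CMP the WT arrays read 125 and 137 and the KO arrays 168 and 175, so the genotypes did not overlap there either. The 95% interval of its averaged difference, not adjusted for the number of genes, ran from 0.18 to 0.68. With the mean over its probe sets the averaged difference was 0.10 (limma, adjusted p = 0.753), and its other probe set passed the floor on 3 arrays.

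In LSK the widest values were 1.73 ± 0.48 for Rab13 (adjusted p = 0.237) and 0.92 ± 0.58 for Rab23 (0.667) on the higher side, and -1.87 ± 0.55 for Rab40c (0.262) and -1.24 ± 0.90 for Rab33a (0.725) on the lower. Rab33a, a Golgi and autophagy Rab, was above the floor on a single array of all 14, WT LSK array 2, at 75.1 against 6.27 on the other WT LSK array. Rab40c also had a wide gap between its WT LSK arrays, with 386 and 102 in WT LSK against 51.2 and 57.8 in KO LSK. Without WT LSK array 2 the adjusted p of Rab40c was 0.0210 in LSK (-2.83) and 0.0498 in the average (-1.25), and that of Rab33a in LSK was 0.0196 (-3.03) without WT LSK array 1. Without KO LSK array 2, Rab8a, a Rab of delivery to the plasma membrane, was called too (-0.995, adjusted p = 0.0139). It lay at 1640 on KO LSK array 1 and at 3190 on array 2.

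In CMP the members at the ends of the range were Rab2b, an ER and Golgi Rab (1.12 ± 0.53), Rab17, an endosomal Rab of epithelia (0.84 ± 0.95), Rab7b (-0.58 ± 0.43) and Rab39 (-0.51 ± 0.66), with adjusted p between 0.831 and 0.937. In GMP they were Rab39 (0.78 ± 0.66), Rab37 (0.76 ± 0.27), Rab13 (-0.91 ± 0.48) and Rab40c (-1.05 ± 0.55), each with an adjusted p of 0.9999. Whether the genotype difference itself changed from LSK to GMP was tested directly, and 0 of 59 members passed (0.0055% of all genes), while 4 had an unadjusted p under 0.05. The ends of that range were -2.64 ± 0.68 for Rab13, -1.08 ± 0.82 for Rab23, 1.41 ± 0.996 for Rab4a and 1.58 ± 1.27 for Rab33a, with adjusted p of 0.502 or more.

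**Figure D2:**
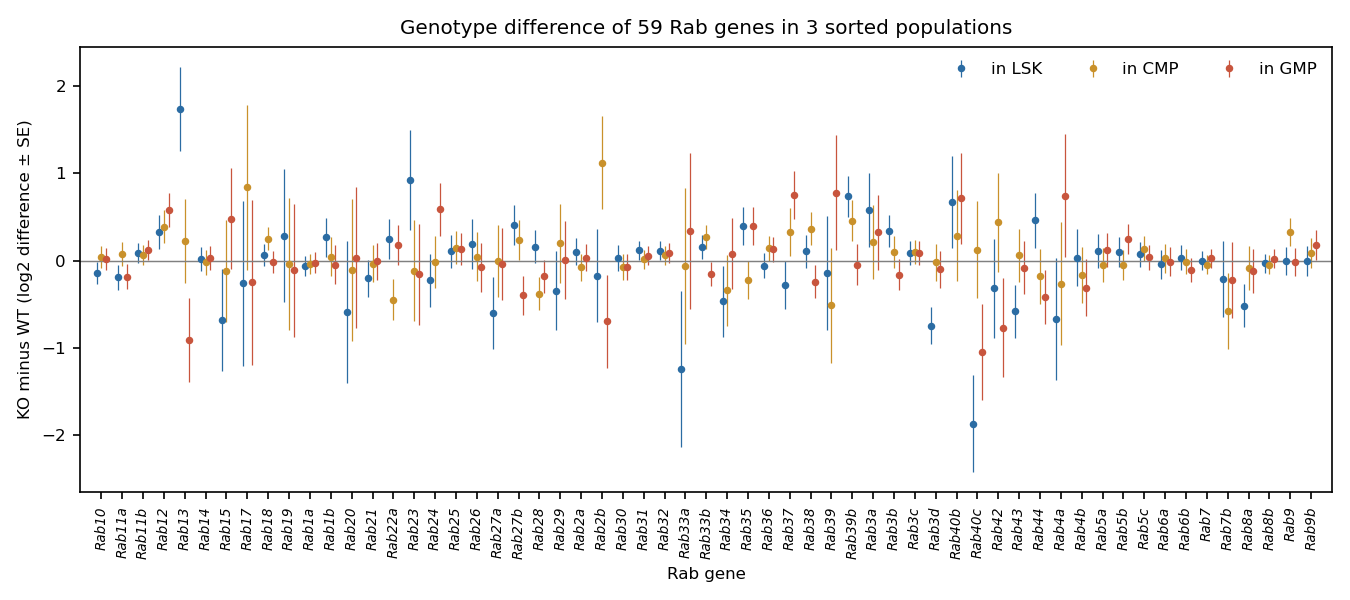
Log2 difference KO minus WT with its SE for each of the 59 Rab genes (horizontal axis) in LSK, CMP and GMP (vertical axis, log2 units). None of the points passed an adjusted p of 0.05, and the widest, Rab40c in LSK, lies at -1.87.

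The second question, how the family changes as WT cells pass from LSK through CMP to GMP, gave a small set of called members. From LSK to CMP, 2 of 59 members were called (3.39%, against 1.53% of all genes), and both rose (0.484% of all genes rose and 1.04% fell). From CMP to GMP another 2 were called (against 0.89% of all genes), and both fell (0.429% of all genes rose and 0.462% fell). Across the whole span from LSK to GMP, 7 were called in WT (11.9%, against 7.09% of all genes), 3 higher and 4 lower, and 8 in KO (13.6%, against 7.18%), 4 higher and 4 lower. Of all genes 3.22% were higher and 3.87% lower in WT, and 3.42% and 3.76% in KO. The medians of the 59 stayed near 0 in both genotypes, at -0.02 in WT and 0.00 in KO, against 0.07 over all genes in each.

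Rab7b, which returns cargo from late endosomes to the trans-Golgi network, showed the widest rise. It lay at 88.8 and 138 in WT LSK, 150 and 61 in KO LSK, 1330 and 886 in WT CMP, 589 and 901 in KO CMP, 2390 and 2230 in WT GMP, 2330 and 1680 in KO GMP, and 124 and 89.4 in replated cells. Every LSK array was below every CMP array and every CMP array below every GMP array, and the replated arrays lay in the range of LSK. In WT cells Rab7b rose by 3.29 ± 0.43 from LSK to CMP (9.80-fold, adjusted p = 0.00758) and by 4.38 ± 0.43 from LSK to GMP (20.8-fold, 5.82e-04). In KO cells it rose by 4.37 ± 0.43 from LSK to GMP (20.7-fold, 7.47e-04). Its other probe sets gave smaller values, 1.06 and 0.12 from WT LSK to WT CMP, 2.7 and 0.45 from WT LSK to WT GMP and 2.4 and 0.92 from KO LSK to KO GMP. With the mean over its probe sets the rise from WT LSK to WT CMP was 1.49 and was called (0.00700), and that to WT GMP was 2.51.

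Rab44, a large Rab with EF-hand calcium-binding motifs that acts in mouse mast cell degranulation, rose along the same path. It lay at 76.6 and 122 in WT LSK, 152 and 116 in KO LSK, 635 and 541 in WT CMP, 370 and 726 in KO CMP, 915 and 891 in WT GMP, 675 and 678 in KO GMP, and 1400 and 1550 in replated cells. The 4 LSK arrays were below every other array, and the replated arrays were above every sorted one. The WT rise was 2.6 ± 0.31 from LSK to CMP (6.06-fold, adjusted p = 0.00593) and 3.22 ± 0.31 from LSK to GMP (9.34-fold, 5.39e-04). The KO rise from LSK to GMP was 2.35 ± 0.31 (5.08-fold, 0.00313).

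Rab32, which acts with Rab38 in the biogenesis of lysosome-related organelles and in the lysosomal traffic of phagocytes, rose by a smaller amount. Its intensities were 2230 and 2210 in WT LSK, 2280 and 2530 in KO LSK, 2280 and 2370 in WT CMP, 2400 and 2460 in KO CMP, 3280 and 3390 in WT GMP, 3560 and 3530 in KO GMP, and 3770 and 3910 in replated cells. All 4 GMP arrays lay above the 8 LSK and CMP arrays, and the replated arrays above those. From LSK to GMP it rose 1.5-fold in WT (0.59 ± 0.11, adjusted p = 0.0135) and 1.47-fold in KO (0.56 ± 0.11, 0.0173). Rab38, its close relative, went the other way over the same span. Its arrays read 1940 and 2190 in WT LSK, 2230 and 2220 in KO LSK, 1520 and 1210 in WT CMP, 1940 and 1580 in KO CMP, 1030 and 1340 in WT GMP, 902 and 1090 in KO GMP, and 3060 and 3430 in replated cells. LSK arrays did not overlap with GMP arrays in either genotype, and Rab38 fell by 0.82 ± 0.19 in WT (1.76-fold, 0.0333) and by 1.17 ± 0.19 in KO (2.25-fold, 0.00756).

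Rab37, described on secretory granules of mast cells and other blood cells, fell at the step into GMP. It lay at 996 and 828 in WT LSK, 1020 and 546 in KO LSK, 644 and 594 in WT CMP, 651 and 932 in KO CMP, 173 and 164 in WT GMP, 281 and 289 in KO GMP, and 1780 and 1740 in replated cells. The 4 GMP arrays were the lowest of the 14, and the LSK and CMP arrays overlapped. Its difference was -1.88 ± 0.27 from WT CMP to WT GMP (3.67-fold lower, adjusted p = 0.0165), -2.43 ± 0.27 from WT LSK to WT GMP (5.39-fold lower, 0.00100) and -1.39 ± 0.27 from KO LSK to KO GMP (2.62-fold lower, 0.0170).

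Rab27b, which docks secretory granules of mast cells and platelets, also fell into GMP. It lay at 796 and 1230 in WT LSK, 1480 and 1170 in KO LSK, 1200 and 1460 in WT CMP, 1530 and 1600 in KO CMP, 515 and 629 in WT GMP, 403 and 463 in KO GMP, and 7200 and 8000 in replated cells. The 4 GMP arrays were below the 8 LSK and CMP arrays. The fall from WT CMP to WT GMP was called by a narrow margin (-1.22 ± 0.23, 2.33-fold, adjusted p = 0.0475) and was not called under median centring (0.0601) or with the mean over all probe sets (0.0829), and the fall from LSK to GMP was called in KO (-1.60 ± 0.23, 3.04-fold, 0.00401). Its paralog Rab27a, needed for the release of lytic granules in T cells and primary granules in neutrophils, lay at 2690 and 1870 in WT LSK, 2540 and 865 in KO LSK, 2310 and 2380 in WT CMP, 2020 and 2690 in KO CMP, 3120 and 3340 in WT GMP, 3210 and 3090 in KO GMP, and 1280 and 1050 in replated cells. KO LSK array 2 stood far below its partner, and Rab27a was not called in either span (0.52 ± 0.41 in WT, adjusted p = 0.539, and 1.09 ± 0.41 in KO, 0.171). With the mean over all its probe sets it was called higher in both spans (limma, 0.95 in WT, adjusted p = 0.00564, and 0.69 in KO, 0.0272).

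Rab3d, the secretory Rab3 found in exocrine and mast cells, lay at 1060 and 1600 in WT LSK, 778 and 782 in KO LSK, 1700 and 1300 in WT CMP, 1630 and 1320 in KO CMP, 2200 and 2180 in WT GMP, 1940 and 2160 in KO GMP, and 1600 and 1740 in replated cells. The KO LSK arrays were the lowest and the WT GMP arrays the highest. From LSK to GMP it rose 2.62-fold in KO (1.39 ± 0.21, adjusted p = 0.00588), while the value in WT was 0.74 ± 0.21 (0.0725). With the mean over all its probe sets the rise was called in both genotypes (limma, 1.03 in WT, adjusted p = 0.00278, and 1.03 in KO, 0.00332). Without WT LSK array 2 the WT value was 1.04. The difference between the 2 spans was not called (0.65 ± 0.30, 0.839).

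Rab40b and Rab4a completed the called members of these spans. Rab40b was at or below the floor on the GMP arrays, with 5.99 and 5.15 in WT GMP and 8.86 and 9.40 in KO GMP. The WT LSK arrays read 27.3 and 37.9 and the KO LSK arrays 27.3 and 96.1. It was at least 1.38-fold lower in WT GMP than in WT LSK (adjusted p = 0.0199) and at least 2.00-fold lower in KO (0.0222), but with values below the floor raised to it neither was called (0.606 and 0.179). Rab4a, which drives rapid recycling from early endosomes, read 383 and 454 in WT LSK, 306 and 225 in KO LSK, 219 and 147 in WT CMP, 307 and 72.1 in KO CMP, 113 and 29.4 in WT GMP, 83.1 and 112 in KO GMP, and 677 and 717 in replated cells. Its 2 WT GMP arrays differed from each other by 1.94 on the log2 scale, and its fall from WT LSK to WT GMP was called (-2.86 ± 0.70, 7.24-fold, 0.0422). The KO value was -1.44 and was not called.

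**Figure D3:**
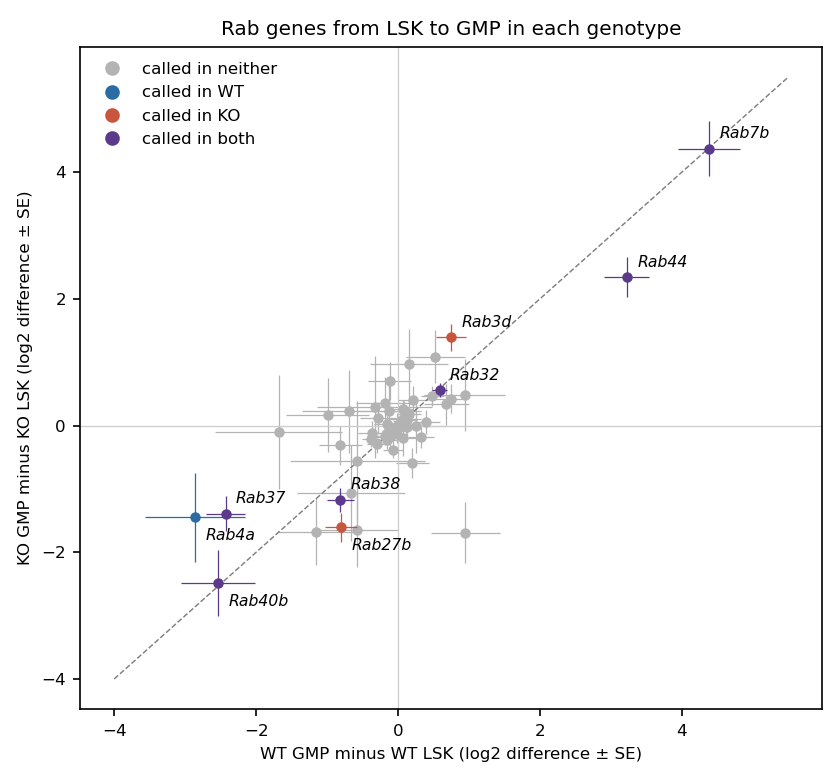
Log2 difference GMP minus LSK in WT (horizontal axis) and in KO (vertical axis) with SEs for the 59 Rab genes, coloured by whether a gene was called in WT, in KO or in both. Rab7b and Rab44 lie at the upper right, and Rab40b, Rab37 and Rab38 at the lower left, near the dashed line of equal differences.

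The WT and KO spans share no arrays, but both come from the same fit over all arrays and use the same SE for each gene. A gene with a small spread can therefore be called more easily in both, and the shared calls are not independent. The 6 members called in both (Rab7b, Rab44, Rab32, Rab37, Rab38 and Rab40b) were 85.7% of the 7 called in WT and 75.0% of the 8 called in KO. Over all genes the 757 shared calls (4.16% of genes tested) were 58.7% of those in WT and 57.9% of those in KO. Each of the 6 moved in the same direction in both genotypes. With only the arrays of the compared groups fitted, Rab44 alone was called in both.

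In the fit used throughout, no ER or Golgi Rab and no recycling Rab was called in either span. The early endosome group had 1 call (Rab4a in WT), the late endosome group had Rab7b, and the other calls came from secretion, lysosome-related organelles and Rab40b. Other settings did give calls among ER, Golgi and recycling Rabs. With the mean over all probe sets of a gene, Rab2b was called lower in WT (-1.05, adjusted p = 0.0171) and KO (-0.89, 0.0364) and Rab11a lower in WT (-0.51, 0.0481). With 16 added to each intensity, Rab10 was called lower in WT (-0.38, 0.0371). Without KO LSK array 1, Rab2b was called in WT (-1.15, 0.0379) and in KO (-2.67). Without WT LSK array 2, Rab15 (-2.07) and Rab43 (-1.23) were called in WT, and without WT LSK array 1 Rab33a (-3.47). Without KO LSK array 2, Rab8a was called higher in KO (0.60). Among the broad traffic genes, Rab5a, which governs fusion of early endosomes, read between 531 and 772 over the 12 sorted arrays, and Rab7, which governs fusion with lysosomes, between 6590 and 7280.

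Calls in the WT steps rested on few arrays. From LSK to CMP, 4 members were called without WT LSK array 1, 3 without WT LSK array 2 and 1 without WT CMP array 1. From CMP to GMP, leaving out a WT CMP or WT GMP array gave between -1.36 and -1.08 for Rab27b and between -1.93 and -1.82 for Rab37. Neither kept its call in any of these fits, and Rab27b also lost its call without most arrays of other groups. From LSK to GMP, Rab32 and Rab40b lost their WT calls without either WT GMP array, Rab38 without array 1 and Rab4a without array 2. In KO, Rab32, Rab37 and Rab40b lost theirs without either KO GMP array. Without KO GMP array 1 Rab38 lost its KO call too, and Rab24 was newly called (1.22). Rab44, Rab7b and Rab37 kept their WT calls over this span whichever of the 14 arrays was left out, and Rab7b, Rab44, Rab3d and Rab27b their KO calls. Rab7b lost its call from LSK to CMP without WT CMP array 1 (2.999, adjusted p = 0.0535), and Rab4a lost its WT call without any of 11 of the 14 arrays (adjusted p between 0.0516 and 0.242, and -1.89 without WT GMP array 2). Fitted on the arrays of the compared groups alone, 4 calls were left in WT (Rab7b, Rab44, Rab37 and Rab40b) and 1 in KO (Rab44).

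The third comparison set replated KO cells against sorted KO cells. Because the replated arrays are the same in all of them, the 3 comparisons are given side by side and their agreement is not a separate result. Against KO LSK, 16 of 59 members were called (27.1%, against 25.1% of all genes), against KO CMP 15 (25.4%, against 24.4%) and against KO GMP 22 (37.3%, against 25.3%). The calls leaned to higher values: 13, 13 and 18 rose and 3, 2 and 4 fell. That is 22.03%, 22.03% and 30.5% of members higher, where 10.8%, 10.3% and 10.2% of all genes were, and 5.08%, 3.39% and 6.78% lower, where 14.2%, 14.1% and 15.2% of all genes were. The median Rab difference was 0.31, 0.25 and 0.17, against 0.01, -0.07 and -0.06 over all genes.

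On both replated arrays 21 members lay above all 12 sorted arrays (35.6%, against 12.9% of all genes), and Rab24, Rab31 and Rab39 lay below them (5.08%, against 16.4%), with Rab39 under the floor in replated cells. The 9 members called higher in all 3 comparisons were Rab1a, Rab5a, Rab13, Rab14, Rab19, Rab22a, Rab27b, Rab37 and Rab44 (15.3%, against 6.63% of all genes), and Rab31 was called lower in all 3 (1.69%, against 9.55%). These cells also carried the mast cell and basophil transcripts given above, whose part in the Rab differences was not tested.

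**Figure D4:**
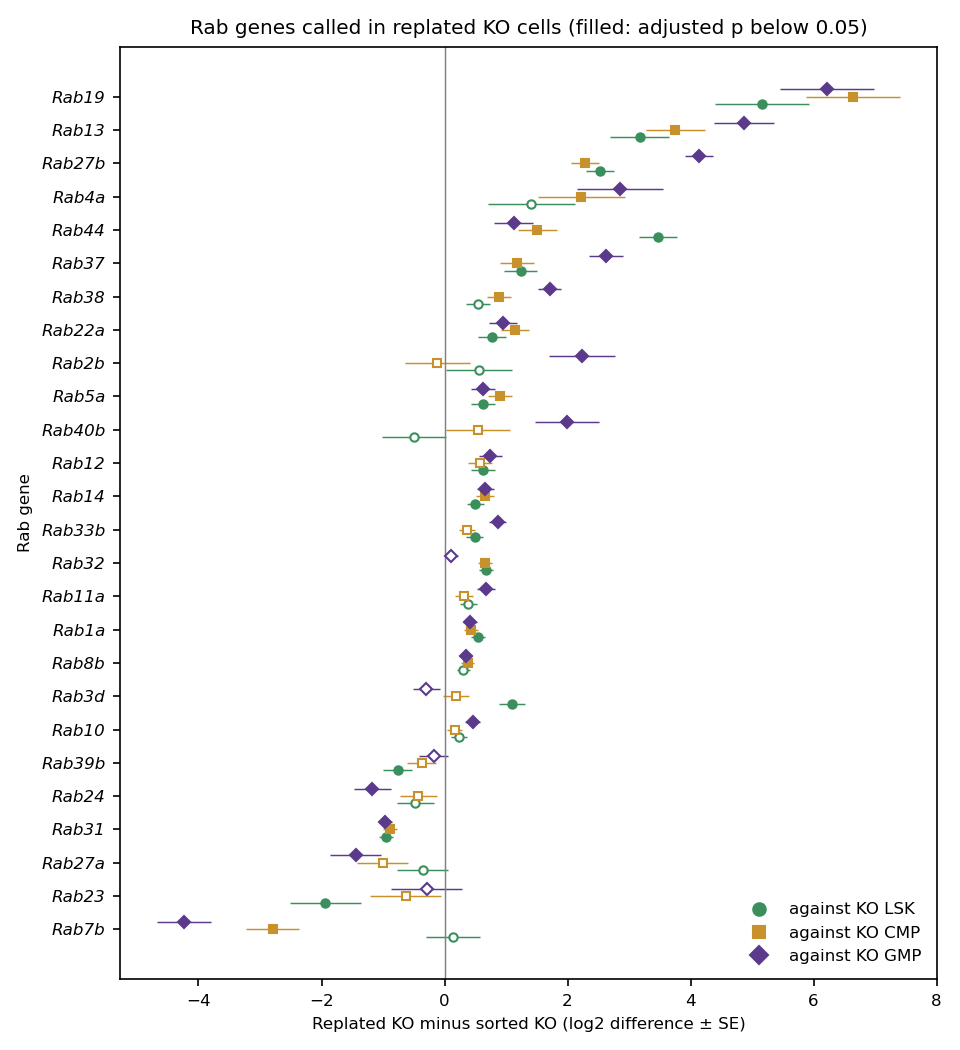
Log2 difference of replated KO cells from KO LSK, KO CMP and KO GMP with its SE (horizontal axis) for the 26 Rab genes called in 1 or more of the 3 comparisons. Filled symbols passed an adjusted p of 0.05. Rab19, Rab13 and Rab27b lie farthest to the right, and Rab7b and Rab23 farthest to the left.

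Among the secretory members, Rab27b was higher in replated cells than in any sorted population. At 7200 and 8000 its replated arrays were 5.78-fold above KO LSK (2.53 ± 0.23, adjusted p = 3.76e-05), 4.85-fold above KO CMP (2.28 ± 0.23, 7.82e-05) and 17.6-fold above KO GMP (4.13 ± 0.23, 1.23e-06). Another 2 of its probe sets gave 4.38 and 4.93 against KO LSK, and the remaining probe set, near the floor on all arrays, gave between -0.21 and 0.09 in the 3 comparisons. Rab27a differed in the opposite direction: its replated arrays, at 1280 and 1050, were 2.71-fold below KO GMP (-1.44 ± 0.41, 0.0300), with values of -1.01 against KO CMP (0.118) and -0.35 against KO LSK (0.618) that were not called. With the mean over all its probe sets it was called lower against KO CMP (limma, -0.93, adjusted p = 0.00161) and KO LSK (-0.66, 0.0113). It was also called against KO CMP when the compared groups alone were fitted (0.0358) and without either KO LSK array (0.00758).

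Rab44 was 11.1-fold above KO LSK in replated cells (3.47 ± 0.31, adjusted p = 4.09e-05), 2.84-fold above KO CMP (1.51 ± 0.31, 0.00665) and 2.18-fold above KO GMP (1.12 ± 0.31, 0.0270). Rab37 was 2.36-fold above KO LSK (1.24 ± 0.27, 0.00889), 2.26-fold above KO CMP (1.18 ± 0.27, 0.0116) and 6.18-fold above KO GMP (2.63 ± 0.27, 9.82e-05). For both genes the 2 replated arrays lay above all 12 sorted arrays. Rab3d was 2.14-fold above KO LSK (1.10 ± 0.21, 0.00429) and was not called against CMP (0.19 ± 0.21) or GMP (-0.29 ± 0.21). Its other probe sets gave 0.21, -0.24 and 0.31 against KO LSK, none past an unadjusted p of 0.05.

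**Figure D5:**
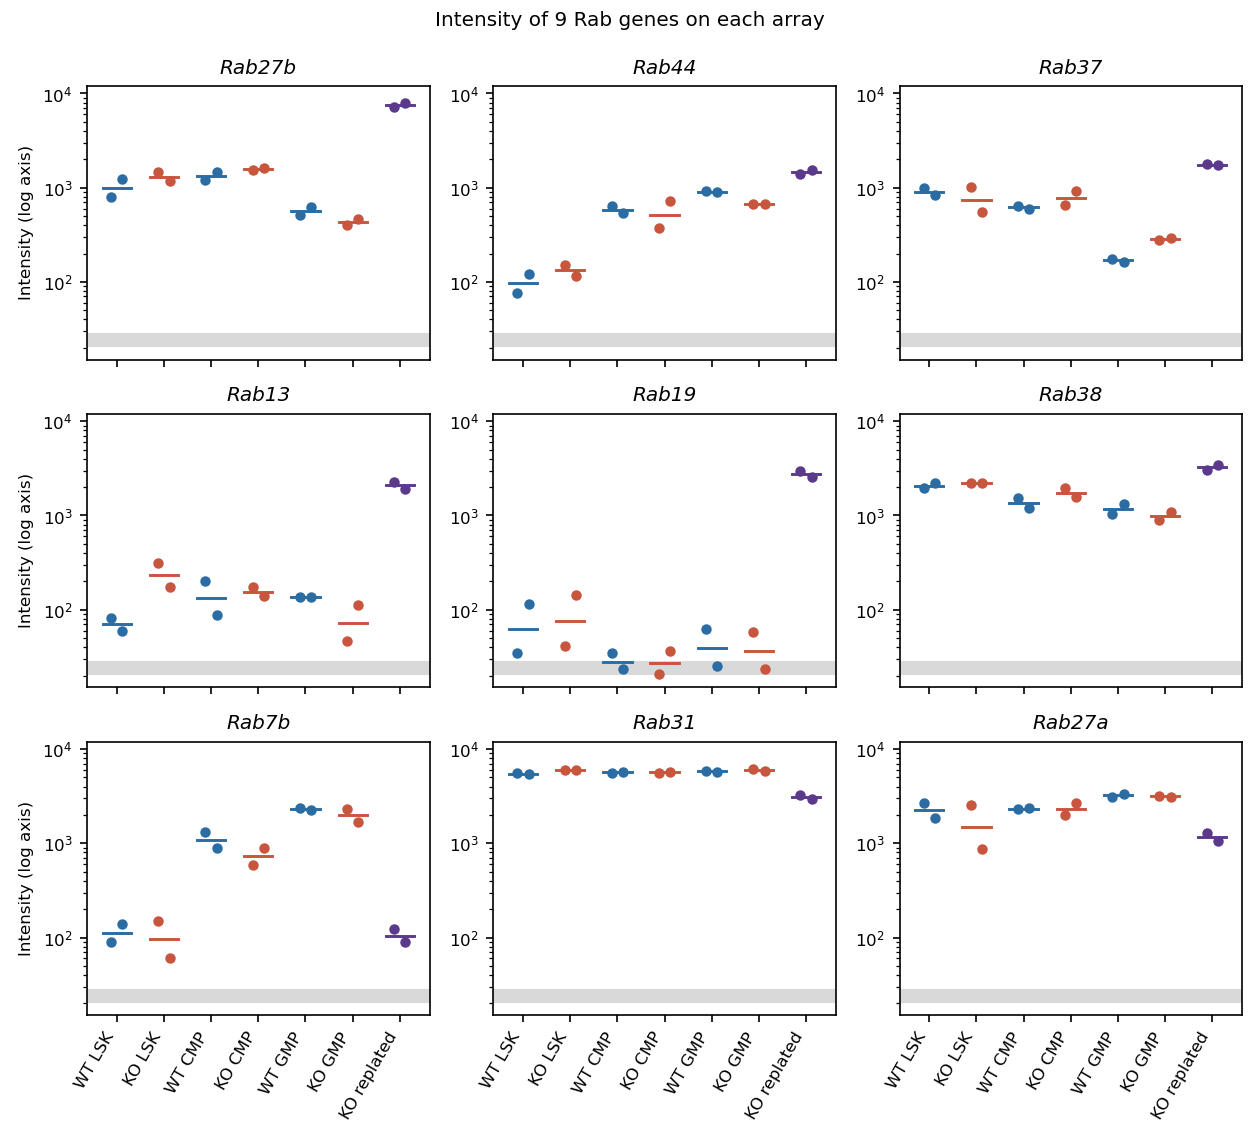
Intensity (log axis) on each of the 14 arrays for 9 Rab genes, with 2 points per group and a line at their mean, taken on the log scale. The grey band spans the floors of the arrays, from 20.8 to 27.8. Rab27b, Rab13 and Rab19 stand out in replated cells, Rab7b and Rab44 climb from LSK to GMP, and Rab31 is lowest in replated cells.

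The largest fold changes of the family in replated cells belonged to genes that were dim in sorted cells. Rab19, a Golgi Rab, lay at 34.8 and 114 in WT LSK, 41.3 and 142 in KO LSK, 34.3 and 23.2 in WT CMP, 20.8 and 36.3 in KO CMP, 61.7 and 25.5 in WT GMP, 58.2 and 23.2 in KO GMP, and 2950 and 2550 in replated cells. Its sorted arrays scattered around the floor, and the replated arrays were 35.7-fold above KO LSK (5.16 ± 0.76, adjusted p = 9.04e-04), 99.7-fold above KO CMP (6.64 ± 0.76, 1.93e-04) and 74.6-fold above KO GMP (6.22 ± 0.76, 2.79e-04). With 1 array of KO CMP and 1 of KO GMP below the floor, the last 2 folds depend on values near background.

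Rab13, which delivers cargo to cell junctions and the leading edge of migrating cells, lay at 81.8 and 60 in WT LSK, 312 and 175 in KO LSK, 202 and 88.8 in WT CMP, 176 and 139 in KO CMP, 135 and 135 in WT GMP, 46.5 and 112 in KO GMP, and 2290 and 1930 in replated cells. All sorted arrays were at 312 or below and both replated arrays at 1930 or above. The difference was 3.17 ± 0.48 from KO LSK (9.02-fold, adjusted p = 0.00107), 3.75 ± 0.48 from KO CMP (13.5-fold, 3.95e-04) and 4.87 ± 0.48 from KO GMP (29.2-fold, 7.12e-05). Both Rab13 and Rab19 had a single probe set.

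The early endosome group had both directions. Rab5a lay at 618 and 698 in WT LSK, 648 and 772 in KO LSK, 691 and 531 in WT CMP, 626 and 550 in KO CMP, 733 and 577 in WT GMP, 714 and 701 in KO GMP, and 978 and 1220 in replated cells. It was 1.54-fold above KO LSK (0.63 ± 0.19, adjusted p = 0.0421), 1.86-fold above KO CMP (0.90 ± 0.19, 0.00796) and 1.54-fold above KO GMP (0.63 ± 0.19, 0.0416). Its paralogs Rab5b and Rab5c were not called. Rab5b lay at 47.3 and 48.9 in WT LSK, 54.2 and 49.1 in KO LSK, 38.4 and 48.1 in WT CMP, 45.4 and 37.9 in KO CMP, 53.1 and 48.5 in WT GMP, 56.8 and 63.9 in KO GMP, and 63.2 and 51.2 in replated cells. Rab5c lay at 2560 and 2540 in WT LSK, 2970 and 2410 in KO LSK, 2780 and 2740 in WT CMP, 3140 and 2940 in KO CMP, 2770 and 2770 in WT GMP, 3100 and 2620 in KO GMP, and 3590 and 3160 in replated cells. The replated arrays of Rab5b fell within its sorted range, while those of Rab5c lay above it by a small margin (0.33 ± 0.15 over KO LSK, 0.142).

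Rab22a, which acts on early endosomes and the recycling route, lay at 2380 and 1950 in replated cells and at 1410 or below on all sorted arrays. It was called in each comparison, by 0.77 ± 0.23 against KO LSK, 1.15 ± 0.23 against KO CMP and 0.95 ± 0.23 against KO GMP. Rab4a was 4.68-fold above KO CMP (2.23 ± 0.70, adjusted p = 0.0470) and 7.23-fold above KO GMP (2.85 ± 0.70, 0.0147), with 1.41 ± 0.70 against KO LSK not called.

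Rab31, a Rab5 relative that acts between the trans-Golgi network and endosomes, was the member lowered in all 3 comparisons. It lay at 5590 and 5420 in WT LSK, 5950 and 6000 in KO LSK, 5560 and 5730 in WT CMP, 5630 and 5780 in KO CMP, 5830 and 5760 in WT GMP, 6140 and 5920 in KO GMP, and 3280 and 2920 in replated cells. The 12 sorted arrays spanned 5420 to 6140, and both replated arrays lay below all of them. The falls were 0.95 ± 0.11 from KO LSK (1.93-fold, adjusted p = 2.29e-04), 0.88 ± 0.11 from KO CMP (1.84-fold, 3.69e-04) and 0.96 ± 0.11 from KO GMP (1.95-fold, 2.03e-04). Its second probe set gave -1.82, -2.58 and -2.45.

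In the recycling group Rab14, which links endosomes and the Golgi, was called in all 3 comparisons (0.50, 0.66 and 0.66, each ± 0.14), with replated arrays at 4470 and 4560 against 3350 or less on sorted arrays. Rab11a, the central Rab of recycling endosomes, lay at 1530 and 1540 in WT LSK, 1440 and 1260 in KO LSK, 1370 and 1310 in WT CMP, 1310 and 1510 in KO CMP, 1130 and 1380 in WT GMP, 1080 and 1120 in KO GMP, and 1740 and 1770 in replated cells. Its replated arrays were above every sorted array, and the difference was called against KO GMP (0.68 ± 0.14, 1.60-fold, adjusted p = 0.00624) but not against KO LSK (0.39 ± 0.14, 0.0792) or KO CMP (0.32 ± 0.14, 0.148). Rab8b was called against KO CMP (0.37 ± 0.11) and KO GMP (0.35 ± 0.11), and Rab10 against KO GMP (0.46 ± 0.13). No recycling Rab was called lower. Rab8a differed by -0.33, -0.39 and -0.44 from KO LSK, CMP and GMP, and without either KO LSK array it was called lower against KO CMP (0.0363) and KO GMP (0.0196). Without KO LSK array 1 it was also called against KO LSK (-0.81, 0.00394).

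In the late endosome group the replated cells had the low Rab7b of LSK cells and not the high one of GMP cells. Rab7b was 6.93-fold below KO CMP (-2.79 ± 0.43, adjusted p = 0.00126) and 18.9-fold below KO GMP (-4.24 ± 0.43, 9.00e-05), with 0.13 ± 0.43 against KO LSK. Its other probe sets gave -0.56 and -0.42 against KO CMP, not past an unadjusted p of 0.05, and -2.43 and -0.82 against KO GMP. Rab7, the main Rab of late endosomes and lysosomes, lay at 7130 and 6590 in WT LSK, 6740 and 6990 in KO LSK, 6890 and 7100 in WT CMP, 6670 and 6860 in KO CMP, 6840 and 7270 in WT GMP, 7280 and 7080 in KO GMP, and 7950 and 8280 in replated cells. Its replated arrays were above all sorted ones, by 0.24 ± 0.11 over KO LSK (0.159), 0.26 ± 0.11 over KO CMP (0.130) and 0.18 ± 0.11 over KO GMP (0.325), which were not called. Rab7 was called against KO LSK and KO CMP with the mean over its probe sets (limma, 0.46, adjusted p = 0.0173, and 0.44, 0.0213). The same held with 16 added to each intensity (0.0286 and 0.0204) and with trend and robust moderation (0.0112 and 0.00722). Rab12 was higher than in KO LSK (0.63 ± 0.19) and KO GMP (0.75 ± 0.19). Rab24, a Rab of autophagy, was lower than in KO GMP (-1.17 ± 0.30, 0.0180), where KO GMP array 2 stood at 421 and array 1 at 204; without array 2 the value was -0.65 (0.0974).

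Of the ER and Golgi genes, Rab1a, which carries cargo from the ER to the Golgi, lay at 5740 and 6030 in WT LSK, 5450 and 5860 in KO LSK, 6360 and 6240 in WT CMP, 6090 and 6170 in KO CMP, 6140 and 6430 in WT GMP, 5840 and 6560 in KO GMP, and 8120 and 8340 in replated cells. Both replated arrays were above all sorted arrays, and the gene was called against KO LSK (0.54 ± 0.12, adjusted p = 0.00719), KO CMP (0.42 ± 0.12, 0.0245) and KO GMP (0.41 ± 0.12, 0.0272), folds of 1.46, 1.34 and 1.33. Another of its probe sets gave -0.57 and -0.66 against LSK and CMP, not past an unadjusted p of 0.05. Rab33b, which acts in Golgi traffic and autophagy, was called against KO LSK (0.49 ± 0.14) and KO GMP (0.87 ± 0.14). Rab2b was called against KO GMP (2.24 ± 0.53, 4.71-fold, 0.0125). Rab39b on the X chromosome was at least 1.52-fold below KO LSK in replated cells (0.0432), where its KO LSK arrays were at 40.4 and 26.9 and its replated arrays under the floor.

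Of the lysosome-related organelle genes, Rab32 was 1.60-fold above KO LSK (0.67 ± 0.11, adjusted p = 0.00172) and 1.58-fold above KO CMP (0.66 ± 0.11, 0.00198). It was not called against KO GMP (0.11 ± 0.11, 0.565). Rab38 was 1.85-fold above KO CMP (0.89 ± 0.19, 0.00758) and 3.27-fold above KO GMP (1.71 ± 0.19, 1.48e-04), with 0.54 ± 0.19 against KO LSK (0.0683). With the mean over its probe sets Rab38 was called against KO LSK too (limma, 0.90, adjusted p = 0.0108). Both genes, which ran in opposite directions from LSK to GMP, were brighter on the 2 replated arrays than on any sorted array. Rab40b was at least 1.42-fold above KO GMP (0.0198), and Rab23, a Rab of Hedgehog signalling at the cilium, was 3.83-fold below KO LSK (-1.94 ± 0.58, 0.0360).

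The replated counts rest on 2 arrays, and leaving 1 out lowered them. Against KO LSK 8 members were called without replated array 1 and 10 without array 2, and against KO CMP 9 without replated array 2. Against KO GMP the count was 10 and 12 without each replated array, and 13 and 12 without each KO GMP array. Rab13, Rab19, Rab27b and Rab31 kept their calls in all 3 comparisons in each of these fits; Rab37 lost its call against KO LSK without replated array 1 (1.22, 0.0515) and against KO CMP without KO CMP array 1 (0.92, 0.0813) or either replated array (0.0638 and 0.0603). Rab4a lost its call against KO CMP without KO CMP array 2 (1.18, 0.297), without either replated array (0.155 and 0.172) and without any array of WT LSK, KO LSK, WT CMP or KO GMP (between 0.0579 and 0.0658). Against KO LSK, Rab23 lost its call without either replated, KO LSK or WT GMP array (between 0.053 and 0.171), and Rab39b without KO LSK array 1 (-0.46, 0.251), either replated array, any WT array or either array of KO GMP (between 0.0558 and 0.185). With the mean over all probe sets of a gene, Rab3d and Rab23 were not called against KO LSK (0.34, adjusted p = 0.127, and -0.56, 0.264). Without either replated array, Rab2b, Rab4a, Rab24 and Rab27a lost their calls against KO GMP (between 0.0636 and 0.155).

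The proteins that act on Rabs were read from lists of GAPs (34 of 34 measured), GEFs (29 of 30), effectors (41 of 45) and prenylation and recycling factors (7 of 8). In the KO against WT comparisons 1 of these genes was called: Tbc1d9b, a GAP, was 2.16-fold higher in KO LSK than in WT LSK (1.11, adjusted p = 0.0495), at 1140 and 794 against 481 and 402. That is 2.94% of the GAPs in LSK, where 0.264% of all genes were called. No listed gene was called in the average, in CMP or in GMP, where 0.308%, 0.121% and 0.0934% of all genes were. From LSK to GMP in WT, 4 GAPs fell (11.8%) and 1 rose (2.94%), 1 GEF rose (3.45%) and 1 effector fell (2.44%), where 3.22% of all genes rose and 3.87% fell. In KO 4 GAPs (11.8%) and 5 effectors (12.2%) fell and 0 rose, where 3.42% of all genes rose and 3.76% fell.

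Tbc1d9 led these falls, from 485 and 478 in WT LSK to 15.9 and 46.6 in WT GMP (-4.15, 17.7-fold, adjusted p = 0.00646). In KO it was at least 12.3-fold lower in GMP than in LSK (0.00788). Tbc1d10c fell by 1.15 in WT and by 1.25 in KO, and Sgsm1 by 2.44 and 1.63. The GEF Rin3, an activator of Rab5 proteins, rose by 1.63 in WT (3.10-fold, 0.0171). Rilpl1, a relative of the lysosomal Rab7 effector RILP, fell by 3.52 in WT (0.0225). In KO the effectors Sytl1, which binds Rab27, and Rab11fip3, which binds Rab11, fell by 2.07 and 1.60, and Rph3al, which binds Rab3 and Rab27, was at least 1.95-fold lower.

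In replated cells more effectors rose than fell, and GAPs and GEFs went both ways. Of all genes 10.8% rose and 14.2% fell against KO LSK, 10.3% and 14.1% against KO CMP, and 10.2% and 15.2% against KO GMP. Effectors rose and fell in numbers of 9 and 5 against KO LSK (21.95% and 12.2%), 10 and 2 against KO CMP (24.4% and 4.88%) and 7 and 2 against KO GMP (17.1% and 4.88%), with medians of 0.23, 0.33 and 0.28. GAPs had 5 and 6, 6 and 6, and 5 and 5 (between 14.7% and 17.6% either way), and GEFs 3 and 4, 4 and 3, and 5 and 3 (between 10.3% and 17.2%). Of the prenylation factors Rabggta, a subunit of geranylgeranyl transferase, was called against KO LSK (1.06, 2.08-fold, adjusted p = 0.0246).

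Mlph, the Rab27 effector that ties melanosomes to myosin Va, lay at 28.6 and 19.0 in KO LSK and at 1540 and 1730 in replated cells, a 70.0-fold difference (6.13, adjusted p = 3.51e-08) that depends on values near background, with 1 KO LSK array below the floor. It was at least 64.8-fold above KO CMP and at least 63.8-fold above KO GMP. Sytl2, another Rab27 effector, was under the floor on all 12 sorted arrays and at 82.1 and 116 on the replated ones, at least 4.53-fold, 3.88-fold and 3.82-fold above KO LSK, CMP and GMP. Other Rab27 effectors of the list were called lower: Sytl1 by -3.02 against KO LSK (2.96e-04), and Sytl4 at least 6.73-fold against KO CMP (0.00193) and at least 7.23-fold against KO GMP (0.00151), with its replated arrays under the floor.

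Rabep1, which binds Rab5 on early endosomes, lay at 1700 and 1880 in replated cells, 9.53-fold above KO CMP (3.25, adjusted p = 8.73e-04), and the inositol phosphatase Inpp5b was 5.67-fold above KO LSK (2.50, 8.34e-05). Among GEFs, Rin2, an activator of Rab5, was under the floor in replated cells at 11.0 and 12.5, at least 13.0-fold below KO LSK (6.84e-04). Dennd5b was under it as well, at least 2.40-fold below KO LSK. Rabgef1, also an activator of Rab5, was 2.70-fold above KO CMP (1.43, 0.00990), and Dennd1b was 2.19-fold above KO GMP (1.13, 7.22e-04). Among GAPs, Rabgap1l was 12.4-fold, 14.7-fold and 9.23-fold below KO LSK, CMP and GMP, at 260 and 160 in replated cells against 1750 or more on every sorted array. Tbc1d10c, Tbc1d16 and Tbc1d4 were lower and Tbc1d9b higher: Tbc1d10c fell by 2.29 from KO LSK, Tbc1d16 by 3.37 from KO LSK and Tbc1d4 by 1.63 from KO GMP, and Tbc1d9b rose by 1.47 from KO GMP.

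For members with several probe sets, the others were compared with the one used, over all calls. Of these comparisons 58 went the same way at an unadjusted p below 0.05, 37 did not pass, 6 lay below the floor, and 0 went the opposite way at that p. The second probe set of Rab31 and most other probe sets of Rab27b gave some of the widest differences. The remaining Rab27b probe set, near the floor, gave between -0.21 and 0.09 in the replated comparisons. Against KO LSK, those of Rab3d did not pass or lay below the floor, and those of Rab23 lay below the floor on the compared arrays.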

How the data were processed

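Total RNA of 14 samples, 2 in each of 7 groups named by their titles, was measured on Affymetrix mouse arrays. The authors deposited linear intensities, 1 per probe set. The submitters' processing notes name RMA, but its version and any joint normalization of the arrays were not given in the sources used here. This method draws array distributions together, so a shift shared by most genes would not be seen. Array medians lay between 31.16 and 32.98, and log2 was taken of each deposited intensity with no further scaling. The number of arrays limits the precision.

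Of 45101 probe sets, 34958 name 1 gene in the platform annotation, and the brightest of each gene on average gave 18194 genes. Levels of different genes are not compared. Group means were fitted over all 14 arrays with limma 3.58.1 (R 4.3.3; package data.table, version 1.17.8), with 7 residual and 2.19 prior degrees of freedom and two-sided tests adjusted by Benjamini-Hochberg over all 18194 genes. The procedure was tested on simulated data. Folds are log2 differences turned back to a linear ratio. A fold is given as "at least" from the mean floor where the dimmer group lay at or below the floor on both arrays.

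Members, roles, lists and alternatives were chosen with earlier results of these data known. Named were all called members of a comparison with 10 or fewer, otherwise the 6 largest rises and falls; where none was called, the 2 largest differences each way; 14 members fixed by name, with each array's value (Rab27a, Rab27b, Rab3d, Rab37, Rab44, Rab32, Rab38, Rab5a, Rab5b, Rab5c, Rab7, Rab11a, Rab1a and Rab31); and up to 3 genes of each list. Members named beyond this were chosen after their values were seen. Replicate numbers did not pair the arrays: of 21 pairs of groups, 1 had a correlation of their replicate differences over 0.1 (range -0.10 to 0.10). Alternatives changed the normalization, scaling, floor, pseudocount, filter, probe set, moderation, samples and block. Promoter windows came from RefSeq, GRCm38.p6. Scan dates were not used here, and a batch effect was not tested.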

Additional observations from a re-analysis of the deposited data

Results flagged for a closer look

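In 7 cases both KO arrays lay on one side of both WT arrays in 1 sorted population and on the other side in another, so that the genotype difference ran in opposite directions. The difference between the 2 populations was tested in the limma fit in each case, and none passed after adjustment over all genes, so none is shown to differ.

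For Rab13 the genotype difference was 1.73 in LSK and -0.91 in GMP, a change of -2.64 ± 0.68 (adjusted p = 0.502). Its arrays read 81.8 and 60 in WT LSK, 312 and 175 in KO LSK, 135 and 135 in WT GMP and 46.5 and 112 in KO GMP. Rab2b gave 1.12 in CMP and -0.69 in GMP, a change of -1.81 ± 0.75 (0.99999). Rab27b gave 0.24 in CMP and -0.40 in GMP, a change of -0.64 ± 0.32 (0.99999).

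The other cases were smaller. Rab28, a Rab of cilia, gave 0.16 in LSK and -0.38 in CMP, a change of -0.54 ± 0.27 (adjusted p = 0.792). Rab33b gave 0.15 in LSK, 0.27 in CMP and -0.15 in GMP, changes of -0.31 ± 0.20 from LSK (0.895) and -0.42 ± 0.20 from CMP (0.99999). Rab8b gave -0.04 in CMP and 0.02 in GMP, a change of 0.066 ± 0.15 (0.99999).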

How the results depend on the processing

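Counts of called Rab genes moved most when only the arrays of the groups compared were fitted, which leaves 2 residual degrees of freedom for a pair of groups: 0 in place of 2 from WT LSK to CMP, 0 in place of 2 from WT CMP to GMP, 4 in place of 7 from WT LSK to GMP and 1 in place of 8 from KO LSK to GMP. From WT CMP to GMP the count was also 1 under median centring, with the mean over all probe sets of a gene, and with the 12 sorted arrays alone; the cause was not tested. The other counts stayed within 1.5 times their value under quantile normalization, raising values to the floor, log2(intensity + 16), a filter on dim genes (13168 genes and 52 members left), and trend and robust moderation. Scaling moved the median of all genes by at most 0.01 (quantile) and 0.04 (median centring).

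With 1 array left out the counts ranged from 0 to 1 for KO minus WT on average (0 with all arrays) and in LSK (0), from 1 to 4 for WT LSK to CMP (2), from 0 to 2 for WT CMP to GMP (2), from 4 to 7 for WT LSK to GMP (7), from 5 to 9 for KO LSK to GMP (8), and from 8 to 17, 9 to 17 and 10 to 24 for replated cells against KO LSK (16), CMP (15) and GMP (22). KO minus WT in CMP and in GMP and the tested change of that difference stayed at 0. A direction turned in 4 uncalled values: Rab33a in LSK (-3.03 to 0.55) and its change from LSK to GMP (-0.21 to 3.37), without WT LSK array 2; Rab39 in CMP (-1.05 to 0.021), without WT CMP array 1; and Rab17 in CMP (-0.12 to 1.80), without KO CMP array 2. Of 46 calls of named genes, 26 held whichever array was left out, and 21 of these also held under every other alternative that gave a value.

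With the replicate number as a block, 21 members were called against KO GMP in place of 22 and no other count changed, but Rab5a and Rab39b lost their calls against KO LSK and Rab5a and Rab8b theirs against KO GMP, while Rab39 and Rab40c gained one against KO LSK and Rab39 against KO GMP. With 2 arrays a group, small differences are out of reach, and values at or near the floor are bounds.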

Other observations

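The 2 arrays of a group agreed less well for some Rab genes than for others. A gap of more than 1 on the log2 scale was seen for 8 members in WT LSK, 10 in KO LSK, 3 in WT CMP, 5 in KO CMP, 4 in WT GMP, 5 in KO GMP and 0 in replated cells. The widest gap of a group was 3.58 for Rab33a in WT LSK, 2.61 for Rab20 in KO LSK, 2.37 for Rab17 in KO GMP, 2.09 for Rab4a in KO CMP and 1.94 for Rab4a in WT GMP. Rab20, an endosomal and phagosomal Rab, lay at 12.6 and 77.4 on the KO LSK arrays, and Rab17 at 70.5 and 364 on the KO GMP arrays.

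Rab15, a Rab of endosomal recycling in neurons, was not called in any comparison, with replated arrays at 91.7 and 72 and sorted arrays between 19.9 and 89.4. When either WT LSK array was left out it passed against all 3 sorted KO groups, by 1.63 over KO LSK (adjusted p = 0.00528), 1.63 over KO CMP (0.00519) and 1.45 over KO GMP (0.00867). Its WT LSK arrays read 89.4 and 20.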
